A study of Mus musculus with 30 samples.

Results

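The 34 genes described here serve the uptake, storage and oxidation of fatty acids, and they were taken by name from the deposited expression tables of gastrocnemius muscle. All 34 were found, each on 1 row, and all 34 passed the filter for expressed genes (on average, over 20 reads and over 0.5 FPKM), as part of 12030 genes tested and 56951 gene symbols in all. FPKM is the number of fragments scaled to exon length and to library depth. The muscles came from wild-type male C57BL/6J mice, 1 library per mouse, all housed singly with a running wheel. The LD group (14 mice) stayed on a fixed cycle of 12 hours of light and 12 hours of darkness for 64 weeks. The ADV group (16 mice) lived for the same 64 weeks under chronic jet lag, with the light phase moved forward by 8 hours every 4 days. Mice of both groups were bought at 10 weeks of age. Before these schedules began they spent 2 weeks on the fixed cycle and then 2 weeks in constant darkness. All were sampled in the light phase at the end, when the ADV lights ran in step with those of LD. The study reports higher body weight and lower activity in ADV mice than in LD mice. The part of either in the values below was not tested. The study asked how this misalignment changes aging muscle, and the comparisons below ask whether the fatty acid genes differed between the groups and how they varied among mice of the same group. The plantaris was collected as part of the gastrocnemius. In whole muscle, fewer cells of a type and less RNA per cell cannot be told apart.

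Muscle takes up fatty acids that lipoprotein lipase frees from triglyceride in the blood, carries them through the membrane and the cytosol, and couples them to coenzyme A. The carnitine shuttle brings long-chain acyl groups into the mitochondrion, where beta-oxidation shortens them in repeated rounds of dehydrogenation, hydration, dehydrogenation and thiolysis, with electrons passed on through the electron transfer flavoprotein. Slow oxidative fibers rely on this route more than fast glycolytic fibers, and the fatty-acid-sensing receptors PPARα and PPARδ drive transcription of many of its genes. Myh7, the myosin heavy chain of slow fibers, was used as a measure of slow fiber RNA. Dbp and Bmal1 are clock genes that peak at opposite times of day, so the Dbp/Bmal1 ratio was used as a rough measure of clock phase. The hour at which each mouse was sampled is not given in the sources used here, so the ratio cannot separate clock phase from sampling time.

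The libraries held 18875468.5 to 28512674 reads on exons. All 10 fast fiber markers were abundant, with summed levels of 75226 to 101181 FPKM, against 52.8 to 2097 FPKM for 7 slow fiber markers. All 8 adipocyte markers were detected in every library, with summed levels of 37.7 to 190.4 FPKM in LD and 26.3 to 351 FPKM in ADV, and 0 of the 8 passed the edgeR test between the groups (3 at an unadjusted p under 0.05). LD mouse 23 and ADV mouse 24 stood apart. LD mouse 23 had the lowest Myh7 (3.88 FPKM) and the highest Adipoq (35.1 FPKM) of its group, whereas ADV mouse 24 had the highest of both (233 and 83.7 FPKM).

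The members spanned a wide range of levels. Fabp3, the fatty acid binding protein of heart and muscle, was the most abundant, at 139.9 to 630.2 FPKM with a median of 483 in LD and 332 to 923 FPKM with a median of 596 in ADV. At the other end were Angptl4, the secreted inhibitor of lipoprotein lipase, and Slc22a5, the plasma membrane carnitine transporter, with medians of 2.31 and 3.23 FPKM in LD. The acyl-CoA dehydrogenases and the enzymes of the later steps lay between these, with LD medians of 41.7 FPKM for Acads to 172 FPKM for Acadvl. Mice of one group differed most in Ucp3, a mitochondrial carrier of muscle, whose SD in LD was 77.3% of the mean. Ppard and Crat differed least, at 6.10% and 6.76%. In 28 of 34 members the SD as a share of the mean was larger in LD than in ADV. The same count was not made over all genes tested, and LD mouse 23 alone held the lowest LD value of 25 members.

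**Figure D1:**
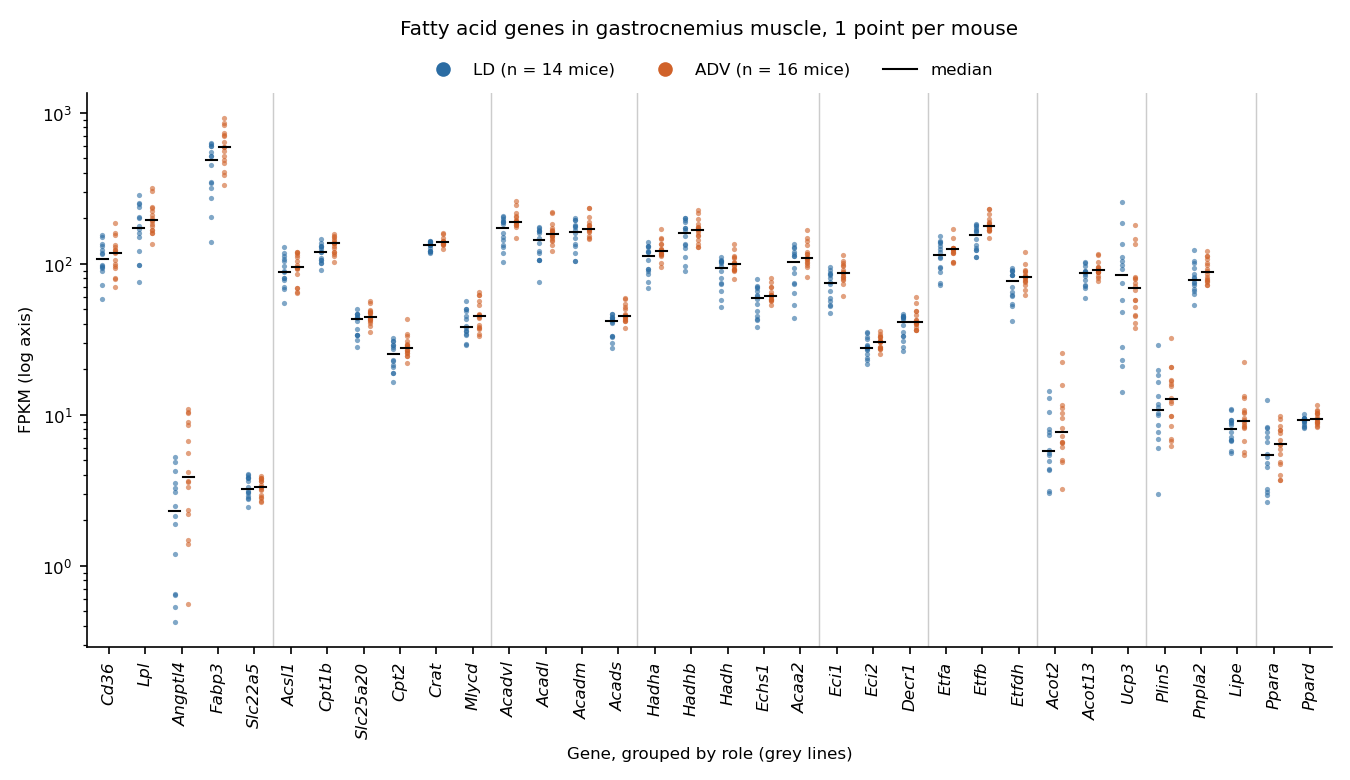
FPKM of the 34 fatty acid genes (log axis) in each LD mouse (blue, n = 14) and ADV mouse (orange, n = 16), with black bars for group medians and grey lines between roles. The groups overlap for all 34 genes, a count that was not made for the other genes tested. Angptl4, Acot2, Ucp3 and Plin5 spread over the widest ranges within a group.

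The LD and ADV groups were compared with the edgeR quasi-likelihood test over all 12030 genes, with an FDR under 0.05 as the call. Only 2 of the 34 members passed, both higher in ADV: Etfb, the beta subunit of the electron transfer flavoprotein, and Acads, the short-chain acyl-CoA dehydrogenase. That is 5.88% of the members, below the background of 10.9% of all genes tested. With the further limit of a 1.3-fold change, 0 of the 34 passed (background 2.09%), while 13 had an unadjusted p under 0.05 (38.2%, against 30.0% of all genes tested). At the same time, 32 of 34 members had a positive log2 fold change, with a median of 0.17 against 0.00 over all genes tested. The other 32 members did not pass. Of the markers of fibers and other cell types, all 7 slow fiber markers had positive log2 fold changes (median 0.46, 0 called, 0 at an unadjusted p under 0.05), as did 7 of 8 adipocyte markers (median 0.38) and all 4 Schwann cell markers tested (median 0.34, 0 called, 3 at an unadjusted p under 0.05). Of the macrophage markers, 6 of 7 had negative log2 fold changes (median -0.25, 0 called, 3 at an unadjusted p under 0.05). Of the 7 endothelial markers, 5 had positive and 2 negative log2 fold changes (median 0.13, 3 at an unadjusted p under 0.05). Only Pecam1 among them was called, at 0.16 (FDR 0.0331), while Vwf was at -0.17 (FDR 0.155). All 6 fibroblast markers had negative log2 fold changes (median -0.12, 3 at an unadjusted p under 0.05). Of these 6, only Pdgfra was called, at -0.24 (FDR 0.0198). The part of these cell types in the fold changes of the members was not tested.

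Etfb ranged over 110.3 to 183 FPKM with a median of 155 in LD and over 148 to 231 FPKM with a median of 177 in ADV, and 15 of 16 ADV mice were above the LD median. Its log2 fold change was 0.29 (SE 0.07, FDR 0.0132), or 1.22-fold, and it passed in all 30 fits that left out 1 mouse. In the GENCODE annotation, 69.1% of the Etfb exon bases also belong to Etfbl on the same strand, so reads of the pair could not be told apart there. Acads ranged over 27.9 to 46.4 FPKM with a median of 41.7 in LD and over 37.3 to 59.5 FPKM with a median of 44.8 in ADV, with 14 of 16 ADV mice above the LD median. The log2 fold change of Acads was 0.25 (SE 0.07, FDR 0.0287), and it no longer passed without LD mouse 28, LD mouse 30 or ADV mouse 24 (FDR up to 0.0539). With each library's trend on GC content removed, 0 of 34 members were called by edgeR (background 4.99%), these 2 included. Neither gene separated the groups: the values of both overlapped.

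Among the genes of uptake, Angptl4 had the largest fold change of all members. It ranged over 0.427 to 5.23 FPKM with a median of 2.31 in LD and 0.555 to 10.9 FPKM with a median of 3.90 in ADV, a log2 fold change of 1.09 (SE 0.39, FDR 0.0612) that missed the threshold. DESeq2 called it, as it did Fabp3, Acadvl and Eci1 beside Etfb and Acads (6 of 34, background 13.9%). Fabp3 had a log2 fold change of 0.47 (SE 0.18, FDR 0.0782), with 12 of 16 ADV mice above the LD median. Lpl, lipoprotein lipase itself, was at 75.4 to 285 FPKM with a median of 174 in LD and 136 to 319 FPKM with a median of 194 in ADV, with a log2 fold change of 0.19 (SE 0.15, FDR 0.415). Cd36, the fatty acid translocase, was at 58.2 to 154 FPKM with a median of 107 in LD and 70.6 to 185 FPKM with a median of 118 in ADV, with a log2 fold change of 0.08 (SE 0.13, FDR 0.709), which was 0.03 without LD mouse 23. The lowest LD value of Fabp3, Lpl and Cd36 was in the same animal, LD mouse 23. Of the Fabp3 exon bases, 66.5% overlap Zcchc17 and Gm10570 on the other strand, and whether counting used the strand is not given in the sources used here. The same holds for 53.8% of Hadha, 50.8% of Ppara, 44.5% of Acadvl and 41.7% of Acot13. Slc22a5 differed least from no change, at -0.02 (SE 0.08, FDR 0.893).

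For the activation and shuttle genes, fold changes were small and 0 of 6 passed. Cpt1b, the muscle form of the carnitine palmitoyltransferase of the outer membrane, was at 91.6 to 147 FPKM with a median of 119.6 in LD and 103 to 157 FPKM with a median of 136 in ADV. Its log2 fold change of 0.15 (SE 0.06, FDR 0.105) came with 12 of 16 ADV mice above the LD median, and 89.8% of its exon bases are shared with the read-through gene Gm44502 on the same strand. The inner-membrane partner Cpt2 (0.19), the carnitine/acylcarnitine carrier Slc25a20 (0.17) and Mlycd, the malonyl-CoA decarboxylase (0.19), had log2 fold changes of like size. Crat, the carnitine acetyltransferase, was at 0.09 and Acsl1, the long-chain acyl-CoA synthetase, at 0.04.

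In beta-oxidation proper, all 4 acyl-CoA dehydrogenases had positive log2 fold changes, from 0.17 for Acadm through 0.23 for Acadl and 0.24 for Acadvl to 0.25 for Acads. The 5 genes of the later steps were all positive too, from 0.12 for the hydratase Echs1 to 0.26 for the thiolase Acaa2, with 0 of 5 called. The alpha and beta subunits of the trifunctional protein, Hadha and Hadhb, were at 0.21 and 0.12. Of the auxiliary enzymes that process double bonds, Eci1 came nearest to the threshold, at 0.27 (SE 0.09, FDR 0.0542), ahead of Decr1 (0.16) and Eci2 (0.09). Etfa and Etfdh, the partners of Etfb in electron transfer, were at 0.12 and 0.18 and did not pass.

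Ucp3 and Decr1 were the 2 members whose ADV median was below the LD median, for Decr1 by 41.2 against 41.3 FPKM. Ucp3 ranged over 14.1 to 257 FPKM with a median of 83.7 in LD and over 37.4 to 181 FPKM with a median of 69.4 in ADV, and 3 of 16 ADV mice were above the LD median. Its log2 fold change was -0.21 (SE 0.33, FDR 0.706), against 0.10 by limma on log2(FPKM + 0.1) and 0.03 without LD mouse 33, the mouse with the highest Ucp3, so its direction was not settled. Acot2, the mitochondrial acyl-CoA thioesterase, was at 3.04 to 14.4 FPKM with a median of 5.74 in LD and 3.21 to 25.6 FPKM with a median of 7.70 in ADV, with a log2 fold change of 0.52 (SE 0.27, FDR 0.195). Acot13, a smaller thioesterase, was at 0.13. Acot2 has a near-identical neighbour, Acot1. Reads that fit both may be missing from the counts, since reads with a mapping quality under 10 were removed. Among the genes of the lipid droplet, the log2 fold change was 0.17 for Plin5, a droplet coat protein of oxidative tissue, 0.14 for the triglyceride lipase gene Pnpla2 and 0.28 for the hormone-sensitive lipase gene Lipe, none of which passed. Without ADV mouse 24 that of Lipe was 0.17, and without LD mouse 23 that of Plin5 was 0.09. Ppara was at 2.66 to 12.5 FPKM with a median of 5.40 in LD and 3.69 to 9.83 FPKM with a median of 6.36 in ADV, with a log2 fold change of 0.12 (SE 0.19, FDR 0.713). Ppard was at 8.13 to 10.1 FPKM with a median of 9.26 in LD and 8.36 to 11.6 FPKM with a median of 9.38 in ADV, with a log2 fold change of 0.06 (SE 0.04, FDR 0.394).

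**Figure D2:**
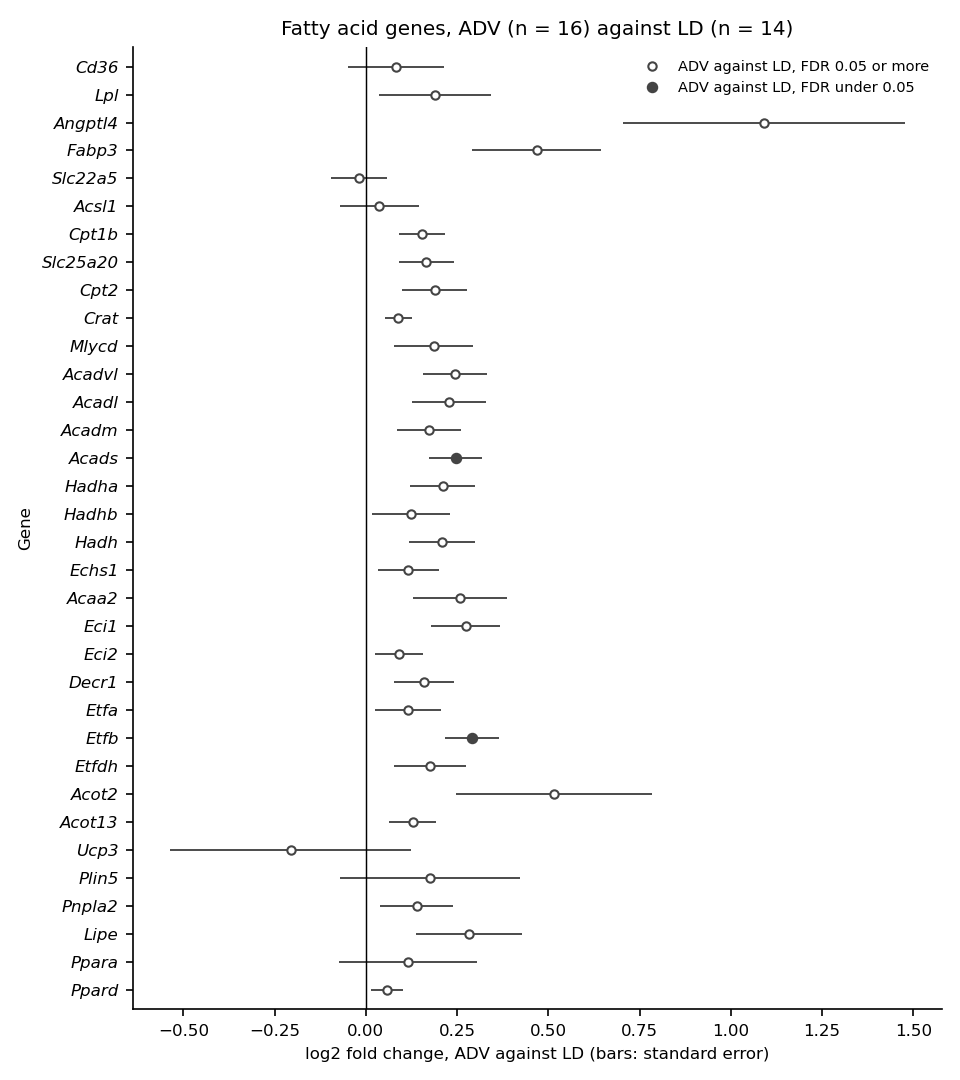
Log2 fold change of each fatty acid gene, ADV (n = 16) against LD (n = 14), from edgeR, with bars for the standard error. Filled points mark Acads and Etfb, the 2 genes with an FDR under 0.05, and 32 of 34 points lie above 0.

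The low end of the LD group was set by few mice. The lowest ADV value was above the lowest LD value in 33 of 34 members, and LD mouse 23 alone held the lowest LD value of 25. The members of LD mouse 23 were at a median of 0.635 times the LD median. Without it, the median log2 fold change of the members was 0.13 and 2 were still called, and the fold changes of 8 members moved by over 1.5 times (Cd36, Slc22a5, Acsl1, Hadhb, Echs1, Etfa, Plin5 and Ppara), with that of Acsl1 turning to -0.01. At the top, LD mice 29 and 32 were above the LD median in all 34 members. ADV mouse 24 held the highest ADV value of 15 members and ADV mouse 31 that of 11, while ADV mouse 23 held the lowest of 17. With log2 Myh7 in the model, the median fold change of the members was 0.09 and 1 was called (background 5.31%). With log2 Adipoq in the model it was 0.20 and 6 were called (background 10.7%), and with the log2 Dbp/Bmal1 ratio in the model 0 of 34 and 0 of all 12030 genes were called by edgeR (median fold change 0.21). The ratio itself differed between the groups, with a median of 2.46 in LD and 0.491 in ADV, so this fit separates the ratio from the group only poorly.

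Next, the slope of each gene on log2 Myh7 was fitted within each group, as the log2 change of the gene per doubling of Myh7. In the annotation, 38.0% of the Myh7 exon bases overlap the antisense gene Mhrt. Myh7 spanned 3.88 to 91.7 FPKM among LD mice and 15.7 to 233 FPKM among ADV mice. In LD, 13 of 34 members had a slope with an FDR under 0.05, against a background of 2.46% of all genes tested, and all 13 slopes were positive. Over all members, 29 of 34 slopes were positive, with a median of 0.11 against -0.00 for all genes. Among the fiber markers, the other slow fiber markers were all called with positive slopes. Of the 10 fast fiber markers, 8 had negative slopes (median of the 10 -0.06, 7 at an unadjusted p under 0.05). Only Myh2 and Myh1, the myosins of IIa and IIx fibers, had positive slopes. These 2 were also the only ones called, at 0.41 (FDR 0.0345) and 0.19 (FDR 0.0263). Myh4, the myosin of IIb fibers, was at -0.13 (FDR 0.0697). The part of each fiber type in the members' slopes was not tested. All 4 acyl-CoA dehydrogenases and all 5 genes of the later steps of beta-oxidation were among the 13, together with Etfa, Lpl, Acot13 and Ppara. By edgeR, none of the 6 activation and shuttle genes was, nor any of the 3 auxiliary enzymes or of the 3 droplet genes. The unadjusted p was under 0.05 for 4, 2 and 1 of these (16.1% of all genes tested), and their smallest FDR was 0.0677 for Eci1. DESeq2 called 18 members, Cpt1b and Eci1 among them (background 4.37%), so this contrast between roles depends on the threshold.

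Ppara, the gene of the receptor PPARα, had the steepest called slope, 0.38 (SE 0.07, FDR 0.00356). Its LD values were lowest in mouse 23 (2.66 FPKM), which had the lowest Myh7, and highest in mouse 29 (12.5 FPKM), where Myh7 was 78.5 FPKM. The slope of Lpl was 0.27 (SE 0.06, FDR 0.0142), and that of Acaa2, whose LD values ran over 44.1 to 136 FPKM with a median of 103, was 0.22 (SE 0.05, FDR 0.0256). Etfa, at 72.7 to 154 FPKM with a median of 115 in LD, had a slope of 0.16 (SE 0.04, FDR 0.0140), and Hadhb, at 89.0 to 201 FPKM with a median of 160.1, one of 0.17 (SE 0.04, FDR 0.0281). The other 8 called slopes lay between 0.10 for Acot13 and 0.17 for Acadl. Fabp3 had a slope as steep as that of Lpl but a wider error, 0.27 (SE 0.08, FDR 0.0572). Cd36 was at 0.17 (SE 0.06, FDR 0.158) and Cpt1b at 0.09 (SE 0.03, FDR 0.0790). On the negative side were Angptl4 at -0.37 (SE 0.20, FDR 0.387), Ucp3 at -0.20 (SE 0.19, FDR 0.670), Lipe, Acot2 and Ppard, none of which passed.

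**Figure D3:**
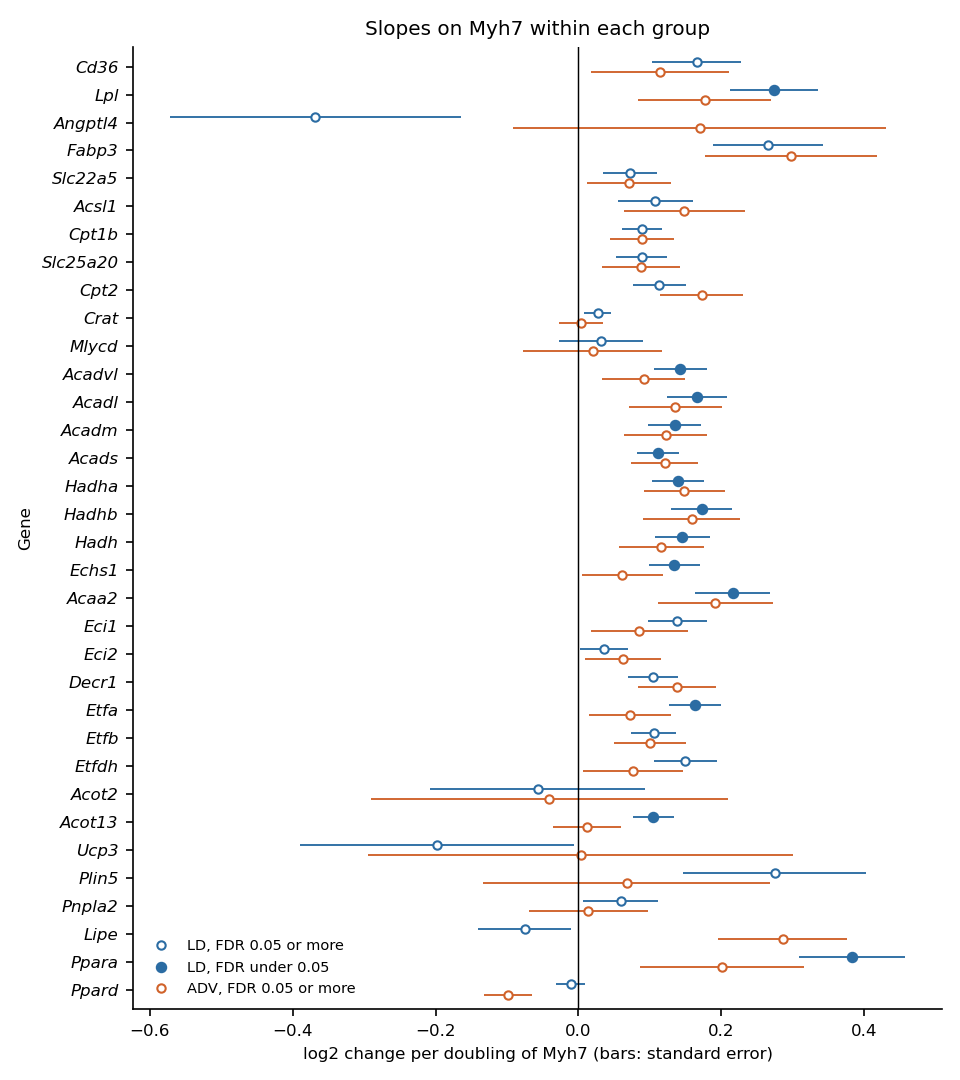
Slope of each fatty acid gene on log2 Myh7 (log2 change per doubling of Myh7) in LD (blue, n = 14) and ADV (orange, n = 16), with bars for the standard error. Filled points are the 13 LD slopes with an FDR under 0.05. Most slopes lie to the right of 0 in both groups (29 of 34 in LD and 32 of 34 in ADV).

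The count of 13 depended on single mice. Without LD mouse 23 it was 0 of 34 (background 0.183%), with 28 of 34 slopes still positive and a median slope of 0.10. Leaving out any one of LD mice 21, 22, 28, 29, 31, 32, 33 and 36 gave 1 to 6 calls. Over all 30 fits that left out 1 mouse, the share of all genes tested that were called ran from 0.183% to 6.87%. Without LD mouse 27, which had a low Myh7 (6.36 FPKM) but members at a median of 1.08 times the LD median, 23 were called and the median slope was 0.19. The slow fiber markers of that mouse summed to 360 FPKM (LD median 608). That was more than in LD mice 28 (304), 33 (117) and 35 (332), whose Myh7 was higher. Without the 2 mice of each group farthest in Myh7, LD mice 23 and 27 among them, 17 were called (background 3.9%). Ppara kept its call in 29 of 30 such fits, and Etfa and Lpl in 28 each, and without LD mouse 23 their slopes were 0.40, 0.14 and 0.23. Of the adipocyte markers, 7 of 8 had a negative slope on Myh7 in LD, with a median of -0.32 and 0 of 8 called (4 at an unadjusted p under 0.05). With Adipoq as a further covariate, 0 of 34 members were called (background 0.49%), 29 of 34 slopes were positive and their median was 0.10. The part of adipocyte RNA in the slopes was not tested.

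In ADV, 0 of 34 members had a called slope on Myh7 (background 1.87%), also by DESeq2 (background 2.77%) and by limma, although 32 of 34 slopes were positive, with a median of 0.10 and 11 at an unadjusted p under 0.05 (32.4%, against 14.5% of all genes tested). Lipe had the smallest p, with a slope of 0.29 (SE 0.09, FDR 0.101). Its values were 5.42 to 22.4 FPKM with a median of 9.09 in ADV and 5.59 to 10.8 FPKM with a median of 8.11 in LD, and the highest was in ADV mouse 24, where Adipoq was highest too. Without that mouse the slope of Lipe was 0.07 (SE 0.12). Cpt2, at 22.2 to 43.0 FPKM with a median of 27.7 in ADV and 16.4 to 32.5 FPKM with a median of 25.2 in LD, had a slope of 0.17 (SE 0.06, FDR 0.122). Ppard ran the other way, at -0.10 (SE 0.03, FDR 0.128). Hadha, at 94.9 to 171 FPKM with a median of 121 in ADV and 68.8 to 139 FPKM with a median of 112 in LD, and Acads followed with slopes of 0.15 (SE 0.06, FDR 0.194) and 0.12 (SE 0.05, FDR 0.200). Of the adipocyte markers, 6 of 8 had positive slopes in ADV, with a median of 0.25.

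The slopes of the groups were then compared directly. The difference of the slopes on Myh7 passed for 0 of 34 members and for 0% of all genes by edgeR, and DESeq2 called 0 members (background 0.125%). The 2 members with an unadjusted p under 0.05 (5.88%, against 9.39% of all genes tested) were Lipe, with a difference of 0.36 (SE 0.11, FDR 0.235) for ADV minus LD, and Ppard at -0.09 (SE 0.04, FDR 0.466). A difference in slope between LD and ADV was therefore not shown for any member.

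**Figure D4:**
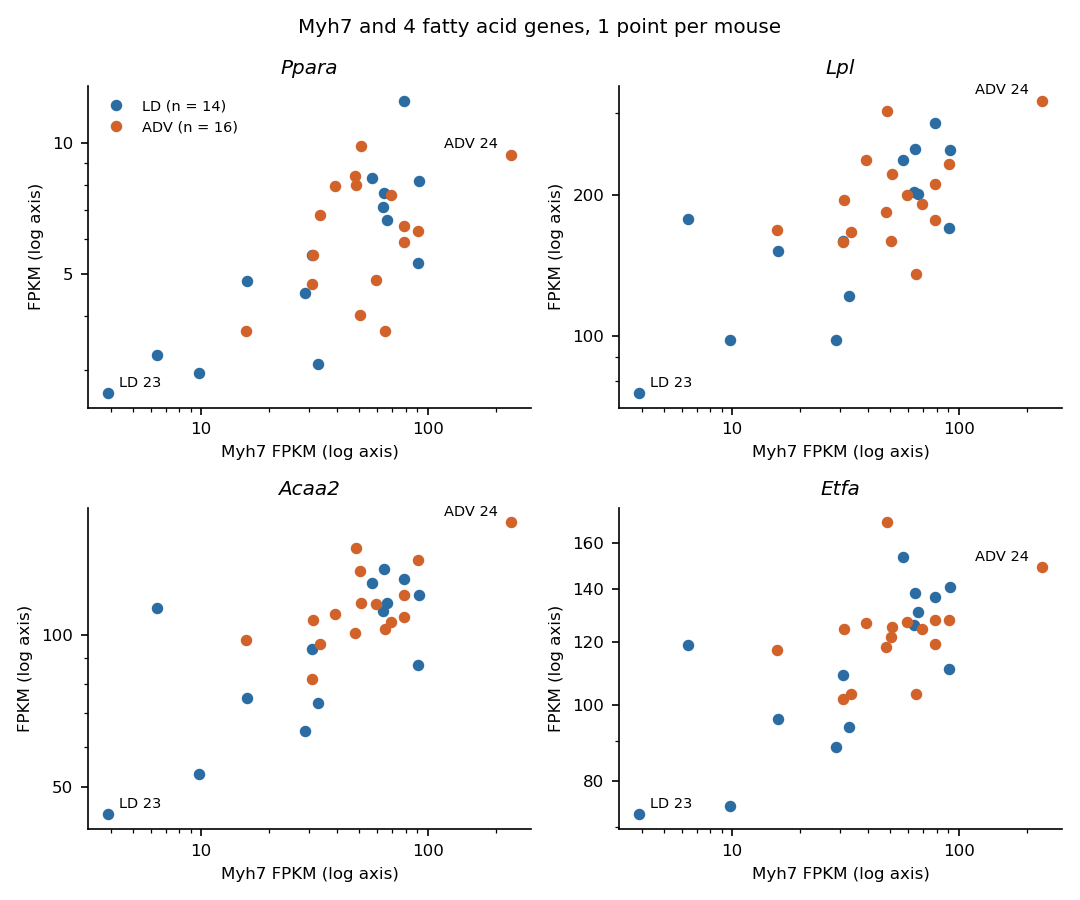
FPKM of Ppara, Lpl, Acaa2 and Etfa against Myh7 FPKM (all axes log) in each LD mouse (blue, n = 14) and ADV mouse (orange, n = 16). LD mouse 23 lies at the lower left of every panel, with 3.88 FPKM of Myh7, and ADV mouse 24 at the far right, with 233 FPKM.

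Slopes on the log2 Dbp/Bmal1 ratio were fitted in the same way. The annotation has 29.3% of the Dbp exon bases in common with Sphk2 on the other strand. The ratio spanned 0.227 to 9.90 in LD (median 2.46) and 0.184 to 2.63 in ADV (median 0.491), so the LD mice covered the wider range. In LD, 1 of 34 members was called (background 0.399%), Ucp3, with a slope of 0.74 (SE 0.16, FDR 0.0370). The LD mouse with the lowest ratio (mouse 34) had the lowest Ucp3, at 14.1 FPKM. The highest Ucp3 was in mouse 33 (257 FPKM, ratio 4.92), and the mouse with the highest ratio (mouse 30) was at 110.4 FPKM. The call was kept in 22 of 30 fits that left out 1 mouse, with slopes of 0.65 to 0.82, and was lost without LD mouse 21, 22, 26, 29, 31, 32, 33 or 34. It was also lost without the 2 mice farthest in the ratio in each group (background 1.75%).

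A further 7 members had an unadjusted p under 0.05 in LD, all with positive slopes, which makes 8 of 34 with Ucp3 (23.5%, against 12.6% of all genes tested). Mlycd, whose enzyme removes the inhibitor of Cpt1, was at 29.1 to 56.3 FPKM with a median of 38.0 in LD with a slope of 0.15 (SE 0.05, FDR 0.153). Eci2 was at 21.7 to 35.5 FPKM with a median of 27.9 with a slope of 0.10 (SE 0.03, FDR 0.157), and Acot2 had the larger slope of 0.37 (SE 0.13, FDR 0.207). Slc22a5, at 2.43 to 4.08 FPKM with a median of 3.23, had one of 0.10 (SE 0.04, FDR 0.223), and Angptl4 one of 0.49 (SE 0.23, FDR 0.367). Pnpla2 (0.12) and Plin5 (0.26) completed the set. By contrast, the dehydrogenases and later-step enzymes that followed Myh7 had slopes on the ratio between -0.02 and 0.03, and Ppara one of -0.00 (SE 0.11). Over all members, 23 of 34 slopes were positive and the median was 0.03, against 0.00 for all genes. With 1 mouse left out, the median ran from 0.0065 with 18 positive slopes (without LD mouse 34) to 0.048 with 33 (without LD mouse 30).

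**Figure D5:**
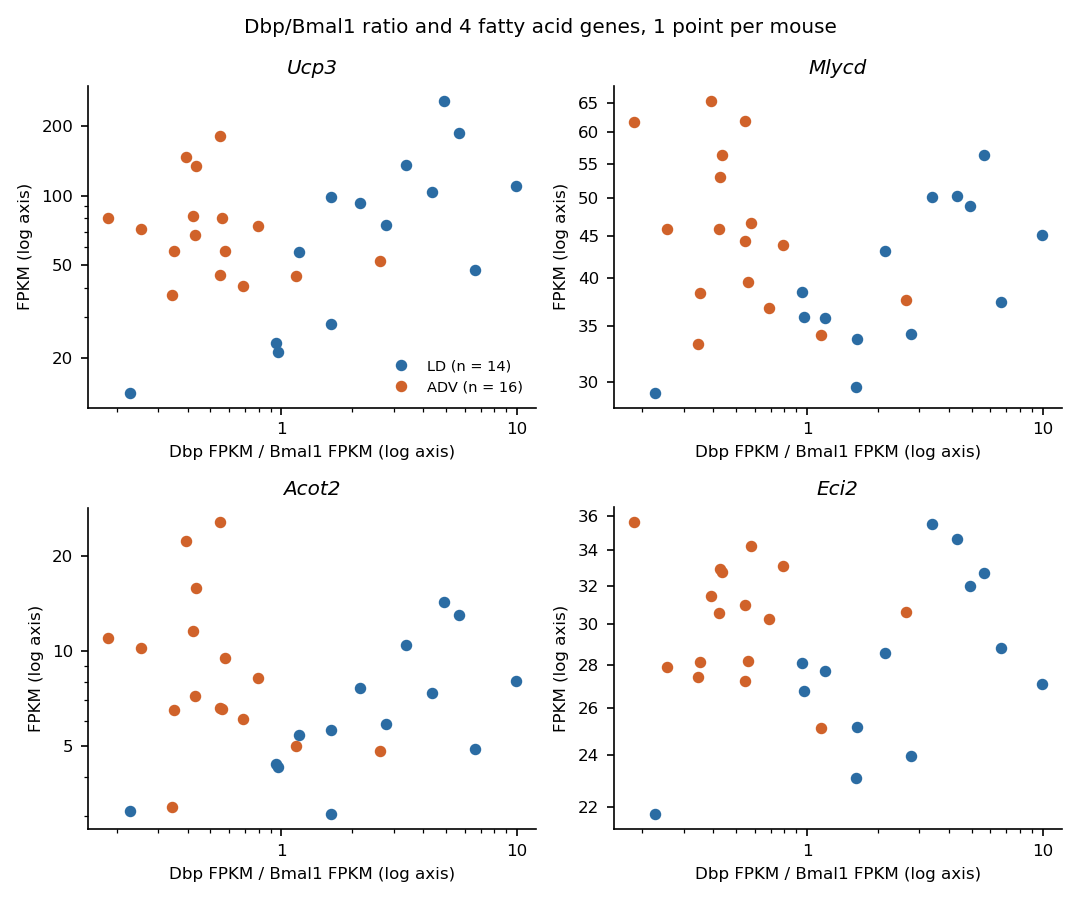
FPKM of Ucp3, Mlycd, Acot2 and Eci2 against the ratio of Dbp to Bmal1 FPKM (log axes) in each LD mouse (blue, n = 14) and ADV mouse (orange, n = 16). The slopes among LD mice are 0.74 for Ucp3, which passed the test, and 0.37 for Acot2, which did not. Most ADV mice lie below a ratio of 1.

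In ADV, 0 of 34 slopes on the ratio were called (background 0.0499%), also by DESeq2 (background 0.0665%) and by limma, with 3 at an unadjusted p under 0.05 (8.82%, against 6.79% of all genes tested). Here 30 of 34 slopes were negative, with a median of -0.05, but without ADV mouse 31, the mouse with the lowest ratio, 18 were positive and the median was 0.0022. Without ADV mouse 23 the median was -0.02 and 13 were positive, and without ADV mouse 21 it was -0.10 and 2 were positive. With Adipoq as a further covariate it was -0.0090 and 13 were positive. Ppard had the smallest p, with a slope of -0.10 (SE 0.03, FDR 0.473), followed by Mlycd at -0.17 (SE 0.07, FDR 0.653), at 33.3 to 65.5 FPKM with a median of 45.1 in ADV, and Lipe at 0.24 (SE 0.12, FDR 0.733). All 8 adipocyte markers had positive slopes on the ratio in ADV, with a median of 0.66, 0 called and 5 at an unadjusted p under 0.05, and their part in the slope of Lipe was not tested. Crat, at 118 to 143 FPKM with a median of 133 in LD and 125 to 159.5 FPKM with a median of 139 in ADV, had a slope of -0.06 (SE 0.03, FDR 0.765) and Acot2 one of -0.36 (SE 0.21, FDR 0.822). For Ucp3 the slope in ADV was -0.23 (SE 0.23, FDR 0.926). The difference of the slopes (ADV minus LD) passed for 0 of 34 members by edgeR (background 0%), with 8 at an unadjusted p under 0.05 (23.5%, against 10.4% of all genes tested), and for 1 by DESeq2, Ucp3 (background 0.374%). That difference was -0.97 (SE 0.28, FDR 0.192) for Ucp3 in edgeR, and -0.33 (SE 0.09, FDR 0.163) for Mlycd, the member with the smallest p. Eci2 was at 25.1 to 35.7 FPKM with a median of 30.6 in ADV and Slc22a5 at 2.66 to 3.92 FPKM with a median of 3.35, with differences of -0.13 (SE 0.06) and -0.10 (SE 0.07).

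Promoter sequence was compared with these patterns as a description. RefSeq windows of 300 bases around the start site (GRCm38.p6) were at hand for 27 of 34 members. The response element of the PPARs in its direct-repeat form (DR1) was in none of them and in 0.381% of the 32851 windows of all genes, counted on both strands. Its half-site AGGTCA was in 6 of the 27 members (22.2%), Acadm, Acadvl, Cd36, Echs1, Plin5 and Ucp3, and in the windows of 18.1% of all genes. The clock element CACGTG was found for Lipe only (8.09% of all genes), and TTATGNAA, a form of the element bound by Dbp, for no member (3.99% of all genes). The 250 bases before the start site are given for Ucp3, the member with a called slope on the ratio, and for 3 members with a called slope on Myh7, each read from 5′ to 3′ on the strand of the gene. These 3 are the members with both a called slope on Myh7 and the half-site. It was absent from the windows of Acadl, Acads, Hadha, Hadhb, Hadh, Etfa and Ppara, whose slopes on Myh7 were also called. Cd36 and Plin5 held it without a called slope. Capitals mark the half-site on either strand. Among the genes shown, Ucp3 alone had it in 2 places, beginning 149 and 44 bases before the start, on chr7:100472741-100472990 (plus strand). In Acadvl it began 87 bases before the start, on chr11:70015429-70015678 (minus strand), and in Echs1 83 bases before, on chr7:140116422-140116671 (minus strand). In Acadm it lay in the opposite orientation, at the upstream end of the stretch, on chr3:153944644-153944893 (minus strand).
Ucp3: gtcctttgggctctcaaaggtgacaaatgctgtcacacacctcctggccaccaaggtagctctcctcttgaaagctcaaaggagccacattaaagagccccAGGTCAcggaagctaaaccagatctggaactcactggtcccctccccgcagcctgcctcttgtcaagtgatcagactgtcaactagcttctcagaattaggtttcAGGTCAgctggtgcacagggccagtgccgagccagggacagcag
Acadvl: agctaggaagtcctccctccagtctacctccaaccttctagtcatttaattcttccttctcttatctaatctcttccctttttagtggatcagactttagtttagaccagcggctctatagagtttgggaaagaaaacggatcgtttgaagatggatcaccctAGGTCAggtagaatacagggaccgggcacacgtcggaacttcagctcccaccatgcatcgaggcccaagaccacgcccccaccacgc
Echs1: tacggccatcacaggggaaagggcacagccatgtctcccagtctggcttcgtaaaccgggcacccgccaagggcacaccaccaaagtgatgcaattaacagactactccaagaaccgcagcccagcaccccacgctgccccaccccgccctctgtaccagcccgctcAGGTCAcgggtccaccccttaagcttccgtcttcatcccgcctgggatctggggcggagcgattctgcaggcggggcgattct
Acadm: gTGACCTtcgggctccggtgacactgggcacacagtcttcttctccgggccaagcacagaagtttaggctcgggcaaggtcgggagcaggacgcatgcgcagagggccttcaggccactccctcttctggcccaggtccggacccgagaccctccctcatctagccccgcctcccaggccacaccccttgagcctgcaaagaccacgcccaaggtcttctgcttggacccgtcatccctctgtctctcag

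Other genes of the pathway, from a list of 78 of which 77 were tested, were read beside the members. Between the groups, 7 were higher in ADV and 4 lower (14.3% of those tested, against 10.9% of all genes tested), with a median log2 fold change of 0.05. Slc27a4, a fatty acid transport protein, was higher in ADV at 0.32 (SE 0.06, FDR 0.00243), as were Acaa1a, a peroxisomal thiolase, at 0.16 (SE 0.04, FDR 0.0119), and Esrra, a receptor that drives mitochondrial genes, at 0.24 (SE 0.06, FDR 0.0136). Crot, the peroxisomal carnitine octanoyltransferase, at -0.29 (SE 0.06, FDR 0.00663), Acsl4, a synthetase with a preference for arachidonate, at -0.36 (SE 0.08, FDR 0.00824), and Prkaa2, a catalytic subunit of AMP-activated kinase, at -0.26 (SE 0.07, FDR 0.0130), were lower. On Myh7 in LD, 6 of 77 had a called slope (7.79%, against 2.46% of all genes tested), all positive. Among them were Ech1, Acat1 and Bdh1, enzymes of oxidation and of ketone bodies. On the Dbp/Bmal1 ratio in LD, 0 of 77 were called by edgeR (background 0.399%), with 17 at an unadjusted p under 0.05 (background 12.6%). Of these 17, Pdk4, a PPAR target that restrains glucose oxidation, had a slope of 0.66 (SE 0.20, FDR 0.137) in LD and -0.29 (SE 0.27, FDR 0.922) in ADV.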

How the data were processed

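Gastrocnemius RNA of 14 LD and 16 ADV mice was sequenced by the study with a stranded poly(A) kit as paired reads of 101 bases. Per the submitters' processing notes and the study's methods, reads were trimmed with Trimmomatic, mapped to GRCm39 with STAR 2.7.10a, freed of reads with a mapping quality under 10 and counted on exons with HOMER 4.11. The authors deposited estimated counts per gene, in which each mate counts 0.5 (14.8% of the values were not whole), and FPKM values of the same 57186 rows, which the counts gave back to within 5.0e-04. The authors' DESeq2 limits (FDR under 0.05 and a 1.3-fold change) were kept beside the test used here.

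Samples were grouped by their labels. The longest row with a mean over 20 reads was kept per symbol (232 symbols had several rows), and genes with a mean FPKM over 0.5 were tested. Counts were rounded and tested with edgeR 4.0.16 in R 4.3.3 (quasi-likelihood F test, TMM, Benjamini-Hochberg over 12030 genes). Slopes used log2 FPKM of Myh7, or of Dbp over Bmal1, centred within each group, in a fit over all 30 libraries, and their difference was tested in the same fit. A slope is the log2 change of the gene per doubling of the measure. The standard error (SE) is the log2 value divided by the root of F. DESeq2 1.42.0, limma 3.58.1 on log2(FPKM + 0.1) and log2(FPKM + 1), other scalings and filters, covariates, removal of the GC content trend, a block on mouse number and leaving out each mouse in turn were alternatives. The fit of the 28 libraries without the block, and for slopes the removal of the GC content trend and of single mice, were added after seeing the data. The test was checked on simulated data.

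Libraries held 18875468.5 to 28512674 exon reads, and the member with the fewest, Slc22a5, averaged 247. No pair of libraries within a group was alike within sampling noise (chi-square per degree of freedom of 10.55 in LD and 10.57 in ADV for the closest pairs). Labels give no litter or batch, and same-numbered mice of the groups were not taken as pairs. All members were named, with full values for those called between groups, for the 5 smallest p per slope and group, and for Cd36, Lpl, Fabp3, Cpt1b, Ucp3, Angptl4, Ppara and Ppard, and up to 6 called genes of the rest of the pathway by p. Bdh1, Acat1, Ech1 and Pdk4 were named after their values were seen. The members, lists and tests were chosen with earlier results of these data known. Exon overlaps come from GENCODE vM39 on GRCm39.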

Additional observations from a re-analysis of the deposited data

How the results depend on the processing

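Of the 34 members, 2 were called between the groups by edgeR, and the same number with RLE size factors, with library size alone, and with edgeR's own filter. The count was 6 with DESeq2, 1 with no filter, 4 with limma at either pseudocount, 1 with Myh7, 0 with the Dbp/Bmal1 ratio and 6 with Adipoq as covariate, 0 with the GC content trend removed and 0 with the 1.3-fold limit. Leaving out 1 mouse at a time gave 1 to 4. For the slope on Myh7 in LD, 13 were called in the main fit, 18 with DESeq2, 15 with limma and 0 with Adipoq as a further covariate. With 1 mouse left out the count was 0 to 23 (0.183% to 6.87% of all genes). In ADV the count of 0 became 1 (Ppard) with the GC content trend removed, and 0 to 1 with 1 mouse left out. For the Dbp/Bmal1 ratio in LD the count of 1 became 0 without the 2 mice of each group farthest in the ratio, and 0 to 1 with 1 mouse left out; the difference of these slopes passed for 1 member with DESeq2. The cause of these moves was not tested.

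Mouse numbers are shared by 14 pairs of mice across the groups. Deviations of same-numbered mice correlated at -0.26 to 0.43 (median 0.01), 6 of 14 over 0.1. These correlations cannot show whether same-numbered mice shared a box, a batch or a sampling hour. With the number as a replicate block in these 28 libraries, 2 members were called between the groups (4.08% of all genes), against 1 without the block in the same libraries (5.1%). The block left 0 called slopes on Myh7 in LD (0.125% of all genes), against 11 without it (2.24%), and 0 on the Dbp/Bmal1 ratio in LD (0.233%), against 1 (0.407%). Every other slope count was 0 with the block. Of the LD libraries, 3 correlated best with the ADV library of their own number.

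Some values near 0 turned sign. The log2 fold change of Cd36 was -0.015 and the log2 fold change of Ppara -0.046 with Myh7 as covariate. The log2 fold change of Slc22a5 was 0.13 with the Dbp/Bmal1 ratio and 0.0030 with Adipoq as covariate, and -0.050 to 0.0057 with 1 mouse left out, above 0 without LD mouse 29 (0.0057), LD mouse 32 (0.0010) or ADV mouse 28 (3.0e-05). The log2 fold change of Ucp3 was 0.10 with limma at a pseudocount of 0.1 and 0.095 at 1, 0.089 with the block, 1.07 with the Dbp/Bmal1 ratio as covariate, and -0.34 to 0.034 with 1 mouse left out, above 0 without LD mouse 33. The log2 fold change of Ppard was -0.015 with the Dbp/Bmal1 ratio as covariate and -0.059 with the GC content trend removed. The log2 fold change of Acsl1 was -0.048 with Myh7 as covariate and -0.0077 without LD mouse 23. The other 28 members kept the sign of their fold change in all 43 alternatives. Of the values of members given in full, 1136 kept their direction and their side of the threshold, 66 lost a call and 7 gained one. The median slope on the Dbp/Bmal1 ratio in ADV was -0.0056 with the block and -0.018 without the 2 mice of each group farthest in the ratio, with 15 and 16 positive slopes.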

Other observations

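The mice that stood apart in the fatty acid genes also differed in other transcripts. Genes of the mitochondrial genome took 6.22% of exon reads in LD mouse 23, the lowest share of the 30 mice, and 13.6% in ADV mouse 31, the highest. The summed level of the 34 fatty acid genes was 1721 FPKM in LD mouse 23 and 4519 FPKM in ADV mouse 24, against group medians of 3061 FPKM in LD and 3373 FPKM in ADV. Macrophage markers had 7 of 7 negative slopes on Myh7 in LD, with a median of -0.14 and 0 called by edgeR (4 at an unadjusted p under 0.05). Their summed level was highest in LD mouse 33 (198 FPKM), which also had the highest Ucp3 and Acot2 of its group. No relation between these values was tested.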
